A study of Drosophila melanogaster with 12 samples.

Results

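The transcripts of 8 cuticle pigmentation and sclerotization genes were followed in adult *Drosophila melanogaster* females reared on 4 isocaloric diets. The genes were ple, Pu, Ddc, b, e, t, y and amd, and each was taken as the transcript of that exact name, so that they make up 8 of the 15448 transcripts counted. The flies descended from an outbred Baseline Population kept on food with a protein-to-carbohydrate (P:C) ratio of 0.4. The diets had P:C ratios of 0.25 (low protein), 0.4 (the baseline food, used here as the control), 0.55 and 0.7 (high protein), set by changing sugar and yeast at equal calories. Each diet had 3 biological replicates, 12 samples in all, and each sample was polyA RNA from a pool of 12 whole females frozen on day 13 post egg collection. That day was counted from the egg, and no sample carries the age of its flies since eclosion. A change of the diet and a change of adult age at sampling therefore cannot be told apart in any comparison that follows.

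The adult insect cuticle is hardened and coloured with compounds made from tyrosine, mostly around eclosion and in the hours that follow it. Tyrosine is hydroxylated to DOPA, DOPA is decarboxylated to dopamine, and dopamine is either oxidised to black and brown melanin or joined to beta-alanine, which gives a tan, hardened cuticle. The same enzymes also work in the nervous system, where dopamine and serotonin are transmitters, and ebony and tan recycle histamine at the photoreceptor synapse. Whole-fly RNA holds both sources, and in such bulk samples fewer cells of a type and less RNA per cell cannot be told apart.

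Of the 8 genes, 6 were highest on the 0.25 diet and lowest on the 0.7 diet, namely ple, Ddc, Pu, b, e and t. Between those 2 diets the fitted fall was 1.57-fold (Pu) to 2.26-fold (Ddc). The transcript y had most of its few counts on the 0.25 diet. The transcript amd behaved differently and was highest on the control diet.

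Library totals ran from 6094226 to 13245114 counts. The deepest and the shallowest library were both from the 0.7 diet, replicates 2 and 1. In every sample, each of the 7 members that were tested had at least 27 counts, so none of them entered the test through 1 diet alone. The transcript y passed the low-count filter in no comparison with all replicates kept. Yolk protein transcripts (Yp1, Yp2 and Yp3) summed to between 40219.6 and 63844.8 CPM (counts relative to the library total) in the 12 samples. Such levels are what the label of whole females implies. The 7 male-specific transcripts of the marker list summed to between 0.547 and 9.57 CPM. The highest sum was in replicate 3 of the 0.55 diet, with 3.99 CPM of Acp36DE and 1.44 CPM of Acp26Aa. On the other diets Acp36DE reached at most 0.428 CPM and Acp26Aa at most 0.129 CPM. The source of this RNA was not tested. Levels below are CPM scaled by TMM, and ± is the SD of 3 samples. A transcript was called between 2 diets where edgeR's quasi-likelihood test gave a Benjamini-Hochberg adjusted p under 0.05 over all tested transcripts and the change was over 1.5-fold. Fold changes are those of the fit, not ratios of mean CPM. For the slope, fitted over the 12 samples as log2 units gained for 1 unit of the ratio, the adjusted p alone was used.

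Among the members, levels can be compared only after division by transcript length. On the control diet, CPM per kilobase of exon was 23.7 ± 2.30 for Pu, 16.1 ± 3.81 for b, 12.2 ± 1.69 for Ddc, 11.6 ± 2.69 for t and 10.3 ± 1.55 for amd. It was 5.35 ± 0.678 for ple, 2.66 ± 0.382 for e and 0.137 ± 0.1196 for y. In that order Ddc, t and amd differed from their neighbours among these 3 by less than the larger SD, and b exceeded Ddc by about its own SD. Pu, ple, e and y each stood apart from the neighbour in level by more than the larger SD.

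**Figure D1:**
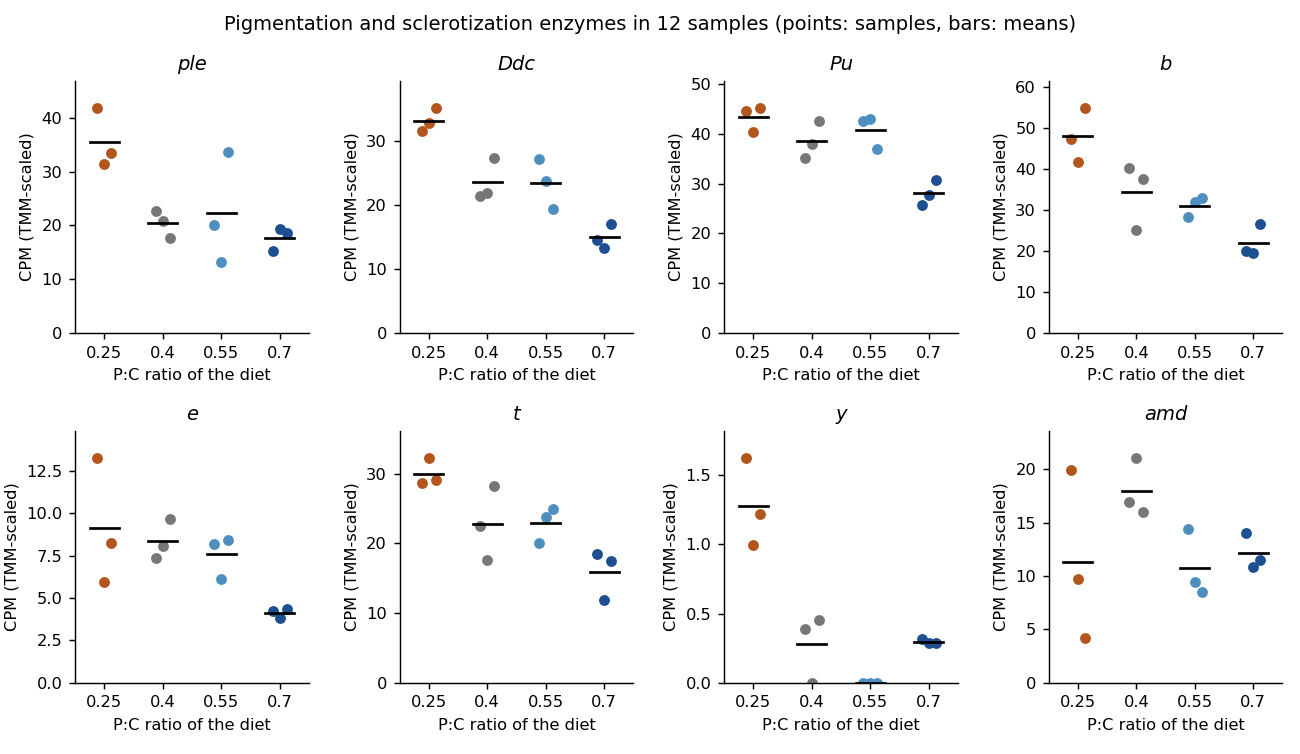
Level of each of the 8 transcripts in CPM (vertical axis, starting at 0, a scale of its own in each panel) against the P:C ratio of the diet. Points are the 3 samples of a diet and bars their mean. Ddc, Pu, b, e and t step down to the 0.7 diet, ple drops after the 0.25 diet, y has counts mainly at 0.25, and amd is highest at 0.4.

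The first members make dopamine. The gene ple (dm6, 3L:6713356-6719525, minus strand, 7 exons) encodes tyrosine hydroxylase, the rate-limiting enzyme that turns tyrosine into DOPA. On the 0.25 diet ple stood at 41.8, 31.3 and 33.5 CPM in replicates 1 to 3, and on the control diet at 22.7, 20.8 and 17.6 CPM. On the 0.55 diet it stood at 20.04, 13.1 and 33.7 CPM, and on the 0.7 diet at 15.2, 19.3 and 18.6 CPM. All 0.25 samples lay above all control and all 0.7 samples, while replicate 3 of the 0.55 diet reached the 0.25 range and gave that diet the widest spread of ple (22.3 ± 10.4 CPM). From 0.25 to 0.7 ple fell by 1.01 on the log2 scale (SE 0.14, adjusted p 0.00159), and its slope was -1.96 (SE 0.57, adjusted p 0.0185). Of the fall in mean log2 CPM between the 2 outer diets, 80.0% lay between 0.25 and 0.4. The middle step held -3.35%, a rise, and the last step 23.4%, and both rest on the widely spread 0.55 diet.

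Pu (2R:21175315-21182608, plus strand, 5 exons) encodes GTP cyclohydrolase, the first enzyme of the path to tetrahydrobiopterin, the cofactor of tyrosine hydroxylase. It gave 44.6, 40.4 and 45.2 CPM on the 0.25 diet and 35.1, 37.9 and 42.5 CPM on the control diet. It gave 42.5, 43.0 and 37.0 CPM on the 0.55 diet and 25.6, 27.8 and 30.6 CPM on the 0.7 diet. The 0.7 samples lay below the other 9, and the 3 lower P:C ratios overlapped one another. Pu fell by 0.65 on the log2 scale from 0.25 to 0.7 (SE 0.10, adjusted p 0.00253), with a slope of -1.17 (SE 0.30, adjusted p 0.0108). In contrast to ple, 86.0% of its fall in mean log2 CPM lay between 0.55 and 0.7. The first step held 27.8% and the middle step -13.8%, a rise. These shares carry no error, so the contrast is a description. A short gene on the other strand, CG4286, lies within Pu but shares no exon bases with it and had at most 7 counts in a sample.

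Ddc (2L:19116483-19120306, minus strand, 3 exons) encodes DOPA decarboxylase, which makes dopamine from DOPA. Ddc gave 31.5, 32.7 and 35.1 CPM on the 0.25 diet, 21.4, 21.9 and 27.3 CPM on the control diet, 27.1, 23.6 and 19.3 CPM on the 0.55 diet, and 14.5, 13.2 and 17.0 CPM on the 0.7 diet. The 0.25 samples were above all others and the 0.7 samples below all others, with the 2 middle diets overlapping between them. The fitted level was 2.26-fold lower at 0.7 than at 0.25 (log2 fold change -1.17, SE 0.13, adjusted p 0.000509), and the slope was -2.30 (SE 0.35, adjusted p 0.000635). Its fall was divided between the first step (43.3%) and the last step (55.4%), and the middle step held 1.33%. Ddc shares 88 exon bases with CG10561 on the opposite strand. That neighbour averaged 20.1, 17.6, 16.2 and 18.5 CPM along the 4 diets, with a slope of -0.29 (SE 0.27, adjusted p 0.399). Reads in the shared bases cannot be assigned without strand, and their part in the change of Ddc was not tested.

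The next 3 members handle the beta-alanine branch. The gene b (black, 2L:13821248-13823979, plus strand, 3 exons) encodes aspartate decarboxylase, which supplies beta-alanine. Its levels were 47.4, 41.8 and 54.9 CPM on the 0.25 diet and 40.3, 25.0 and 37.5 CPM on the control diet. They were 28.4, 31.9 and 33.03 CPM on the 0.55 diet and 19.996, 19.6 and 26.5 CPM on the 0.7 diet. The 0.25 samples were above the other 9, and the highest 0.7 sample was just above the lowest control sample, replicate 2. The fall of b from 0.25 to 0.7 was 2.21-fold (log2 fold change -1.14, SE 0.15, adjusted p 0.00120), and its slope of -2.35 (SE 0.36, adjusted p 0.000662) was the steepest among the tested members.

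The gene e (ebony, 3R:21229839-21237177, minus strand, 7 exons) encodes the enzyme that joins beta-alanine to dopamine. It gave 13.3, 5.96 and 8.23 CPM on the 0.25 diet, 7.35, 8.07 and 9.69 CPM on the control diet, 8.19, 6.10 and 8.46 CPM on the 0.55 diet, and 4.22, 3.85 and 4.35 CPM on the 0.7 diet. The 3 samples of the 0.7 diet were below the other 9, which overlapped one another, and replicate 1 of the 0.25 diet was the highest. From 0.25 to 0.7 e fell by 1.15 on the log2 scale (SE 0.29, adjusted p 0.0181), with a slope of -2.29 (SE 0.63, adjusted p 0.0149). The last step, from 0.55 to 0.7, held 80.2% of the fall. Without replicate 1 or without replicate 2 of the 0.7 diet, the fall of e from 0.25 no longer passed (adjusted p 0.0541 and 0.0687).

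The gene t (tan, X:9217655-9223257, minus strand, 8 exons) encodes the hydrolase that reverses the ebony reaction and releases dopamine. It gave 28.6, 32.3 and 29.2 CPM on the 0.25 diet and 22.6, 17.6 and 28.3 CPM on the control diet. It gave 20.04, 23.8 and 24.9 CPM on the 0.55 diet and 18.4, 11.9 and 17.5 CPM on the 0.7 diet. The 0.25 samples lay above the rest, by a narrow margin over replicate 3 of the control diet. The hydrolase transcript fell with its opposing synthase, by 0.96 on the log2 scale from 0.25 to 0.7 (SE 0.17, adjusted p 0.00450), with a slope of -1.86 (SE 0.40, adjusted p 0.00488). The ratio of e to t in CPM was 0.310 ± 0.142, 0.375 ± 0.0716, 0.335 ± 0.0762 and 0.267 ± 0.0499 along the 4 diets, which overlapped.

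Yellow and amd lie at the ends of the pathway. The gene y (yellow, X:356509-361245, plus strand, 2 exons) encodes a secreted protein needed for black melanin. It had 11, 8 and 13 counts on the 0.25 diet, 3, 0 and 4 on the control diet, 0 in every sample of the 0.55 diet, and 2, 4 and 3 on the 0.7 diet. All 0.25 samples were above all others, while the remaining diets were at or near the limit of detection. The mean on the 0.25 diet, 1.28 ± 0.320 CPM, was at least 2.89-fold higher than the level that 3 counts per library would give on the 0.55 diet (0.378 to 0.479 CPM). With no filter on low counts, y was 2.07 lower on the log2 scale at 0.7 than at 0.25 (SE 0.57, adjusted p 0.0209), and its slope was -5.79 (SE 2.02, adjusted p 0.0459). These counts are few, and y lies inside CG32816 on the opposite strand, with no shared exon bases. CG32816 itself averaged 10016 CPM on the 0.25 diet and fell with the P:C ratio (slope -2.26, SE 0.45, adjusted p 0.00282), and whether any reads of y came from it was not tested.

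The gene amd (2L:19110154-19114110, plus strand, 3 exons, 2372 bases from Ddc) encodes a relative of Ddc that makes an aldehyde from DOPA, which is used to cross-link flexible cuticle. It gave 19.9, 9.69 and 4.21 CPM on the 0.25 diet, 16.9, 21.1 and 16.0 CPM on the control diet, 14.4, 9.39 and 8.46 CPM on the 0.55 diet, and 14.1, 10.8 and 11.5 CPM on the 0.7 diet. The control samples were above all 0.55 and all 0.7 samples, whereas the 0.25 samples covered nearly the whole range of the gene. The slope of amd was -0.31 (SE 0.94, adjusted p 0.808), and the 0.7 diet differed from 0.25 by 0.12 on the log2 scale (SE 0.45, adjusted p 0.835). With an error of that size, neither a rise nor a fall of amd between these diets was detectable at this depth and spread.

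Between the 2 outer diets, 6 of the 7 tested members were called, all lower at 0.7, against 19.3% of the 9845 transcripts tested (17.5% called lower). The median log2 fold change of the tested members was -1.01 and that of all transcripts 0.00 to 2 decimals. Samples of the 0.25 and the 0.7 diet did not overlap for 7 of the 8 members, amd being the exception, and did not overlap for 56.3% of all tested transcripts (26.5% with 0.7 lower). Along the 4 diets, 6 of the 7 tested members fell, against 36.7% of 9928 transcripts called in either direction and 19.6% falling. Leaving out the whole 0.25 diet left 0 members with a called slope, as did leaving out the whole 0.7 diet. Few transcripts of any kind were called in these fits. Without the 0.25 diet 42 of 9792 fell and 1 rose, and without the 0.7 diet 83 of 9856 fell and 27 rose. With so few calls over all transcripts, 0 called members does not show whether the loss is particular to the members. The estimates for the 6 stayed below 0, between -3.36 and -0.65 without the 0.25 diet and between -2.30 and -0.29 without the 0.7 diet.

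Against the control diet, 2 of the 7 tested members, Ddc and e, were lower on the high protein diet, where 4.4% of 9705 transcripts were called (3.82% lower). Ddc was 1.59-fold lower (log2 fold change -0.67, SE 0.15, adjusted p 0.0349) and e was 2.04-fold lower (log2 fold change -1.03, SE 0.20, adjusted p 0.0260). Pu had an adjusted p of 0.0401 but a fold change of 1.38, below the minimum. Samples did not overlap for Ddc, e, amd and Pu, all lower at 0.7, against 36.2% of transcripts (17.9% lower). The estimates of b, amd, t and ple were -0.65, -0.58, -0.55 and -0.19, with adjusted p of 0.0585, 0.0520, 0.110 and 0.361. The calls of Ddc and e were both lost without replicate 1 of the control diet (adjusted p 0.1003 and 0.0804), without its replicate 3 (0.142 and 0.118), without replicate 1 of the 0.7 diet (0.110 and 0.0885) and without its replicate 2 (0.119 and 0.0859). With DESeq2 in place of edgeR, the shrunken change of Ddc was -0.56, under the fold minimum, at an adjusted p of 0.00739.

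The low protein diet gave no called member against the control diet (edgeR, 0 of 7, against 0.636% of 9743 transcripts called, 0.616% higher). At an unadjusted p under 0.05, 4 members passed (ple, Ddc, b and t), against 17% of transcripts, and DESeq2 called 1 member. The closest was ple, 1.75-fold higher (log2 fold change 0.81, SE 0.14, adjusted p 0.0507). With DESeq2 its adjusted p was 0.000522, with library size alone 0.0334, with no low-count filter 0.0349 and without replicate 2 of the 0.25 diet 0.0162, so that the call of ple turns on these settings. Ddc had an estimate of 0.49 (SE 0.12, adjusted p 0.1003) and b of 0.49 (SE 0.18, adjusted p 0.221). For t, Pu and e the estimates were 0.39, 0.18 and 0.11, and for amd -0.71 (SE 0.44, adjusted p 0.432). Samples did not overlap for ple, Ddc, b, t and y, each higher at 0.25, where 22.8% of transcripts did not overlap in either direction and 13% were higher at 0.25 without overlap.

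The 0.55 diet gave no called member against the control diet (edgeR, 0 of 7, against 0.0415% of 9638 transcripts, and 0 with DESeq2). At an unadjusted p under 0.05 amd was the 1 member to pass, against 3.6% of transcripts, with a log2 fold change of -0.73 (SE 0.22, adjusted p 0.881). It was also the 1 member whose samples did not overlap, against 7.19% of transcripts (3.1% with 0.55 lower). The estimates of the other 6 tested members lay between -0.15 and 0.13, with SE of 0.11 to 0.29. The 3 comparisons with the control diet share its 3 samples.

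**Figure D2:**
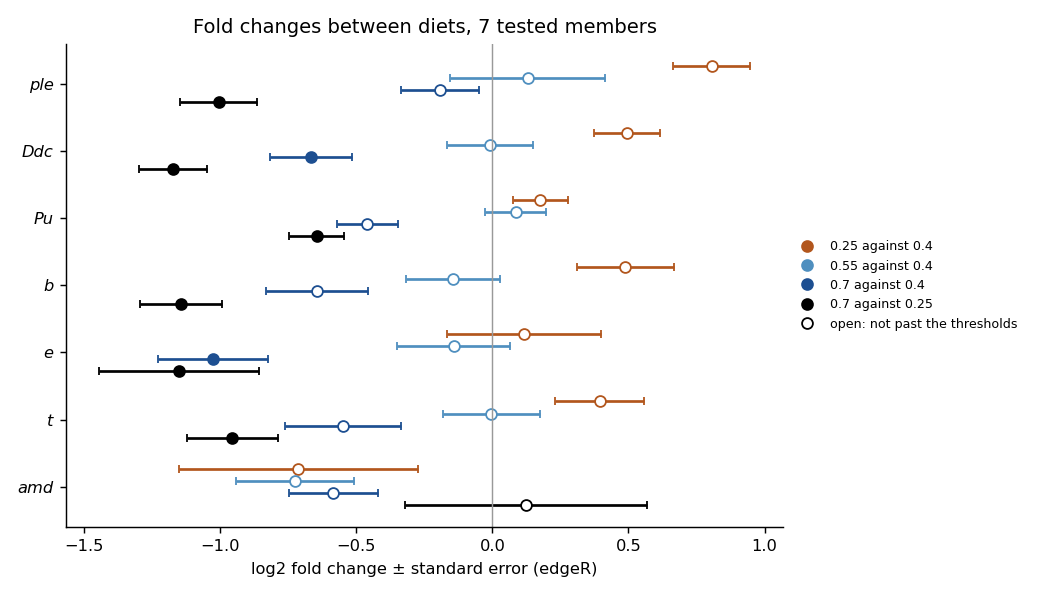
Log2 fold change (horizontal axis) with its standard error for the 7 tested members in 4 comparisons of diets. Filled points passed an adjusted p of 0.05 and a change over 1.5-fold. The 0.7 against 0.25 estimates are near -1 for all but Pu (-0.65) and amd (0.12), and those of 0.55 against 0.4 lie near 0 except for amd (-0.73).

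Transcripts of neurons moved with the 6 falling members. All 6 pan-neuronal markers of the list (elav, nSyb, Syt1, brp, para and Rdl) were called lower at 0.7 than at 0.25, with a median of -1.24 on the log2 scale, and all 6 had a falling slope (median -2.43, from -2.55 to -1.04). Of all transcripts, 17.5% were called lower between those diets and 19.6% had a falling slope. The summed level of the 6 markers ranged from 317 to 398 CPM on the 0.25 diet, 205 to 275 on the control diet, 210 to 293 on the 0.55 diet and 145 to 183 on the 0.7 diet. The 10 photoreceptor transcripts of a list added after values had been seen (ninaE, which encodes the main rhodopsin, Arr1, Arr2, trp, trpl, norpA, inaC, inaD, ninaC and rdgA) also fell in 10 of 10 cases on the slope, with a median 0.7 against 0.25 change of -1.09. Their summed level ranged from 3049 to 3590 CPM on the 0.25 diet and from 1432 to 1874 CPM on the 0.7 diet.

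Divided by the neuronal sum of the same sample, 5 of the 6 falling members overlapped between the outer diets. The neuronal sum itself fell, so under the same division 17.4% of 9928 transcripts overlapped, 81.2% were higher at 0.7 without overlap and 1.38% lower. Ddc amounted to 9.19% ± 1.21, 9.57% ± 1.30, 9.27% ± 0.109 and 8.97% ± 0.423 of the neuronal sum along the 4 diets. For b the shares were 13.2% ± 1.36, 13.7% ± 1.58, 12.7% ± 3.002 and 13.2% ± 1.42, and for t 8.39% ± 1.59, 9.16% ± 0.969, 9.38% ± 2.49 and 9.52% ± 1.30. The other 2 that overlapped were ple and e. Pu was the exception among the 6, with 11.997% ± 0.766 at 0.25 and 17.0% ± 2.07 at 0.7, ranges that did not overlap. The share of amd was 3.06% ± 1.94 at 0.25 and 7.33% ± 0.958 at 0.7, also without overlap.

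When every sample was scaled by the counts of these 6 markers in place of TMM, an alternative chosen after seeing the data, 0 of the 6 falling members kept a falling slope call, and on that scale only 0.856% of the 9928 transcripts had one, while 76.9% were called as rising. The slopes were then -0.09 (SE 0.36) for Ddc, -0.08 (SE 0.41) for b, -0.03 (SE 0.62) for e, 0.37 (SE 0.44) for t and 0.38 (SE 0.63) for ple. The slope of Pu turned to 1.04 (SE 0.40, adjusted p 0.0242) and was called as rising, but it lay below the median slope of all transcripts, which this scale moves from 0.05 to 2.29. Whether the RNA of the members came from nervous tissue or from the epidermis was not tested.

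**Figure D3:**
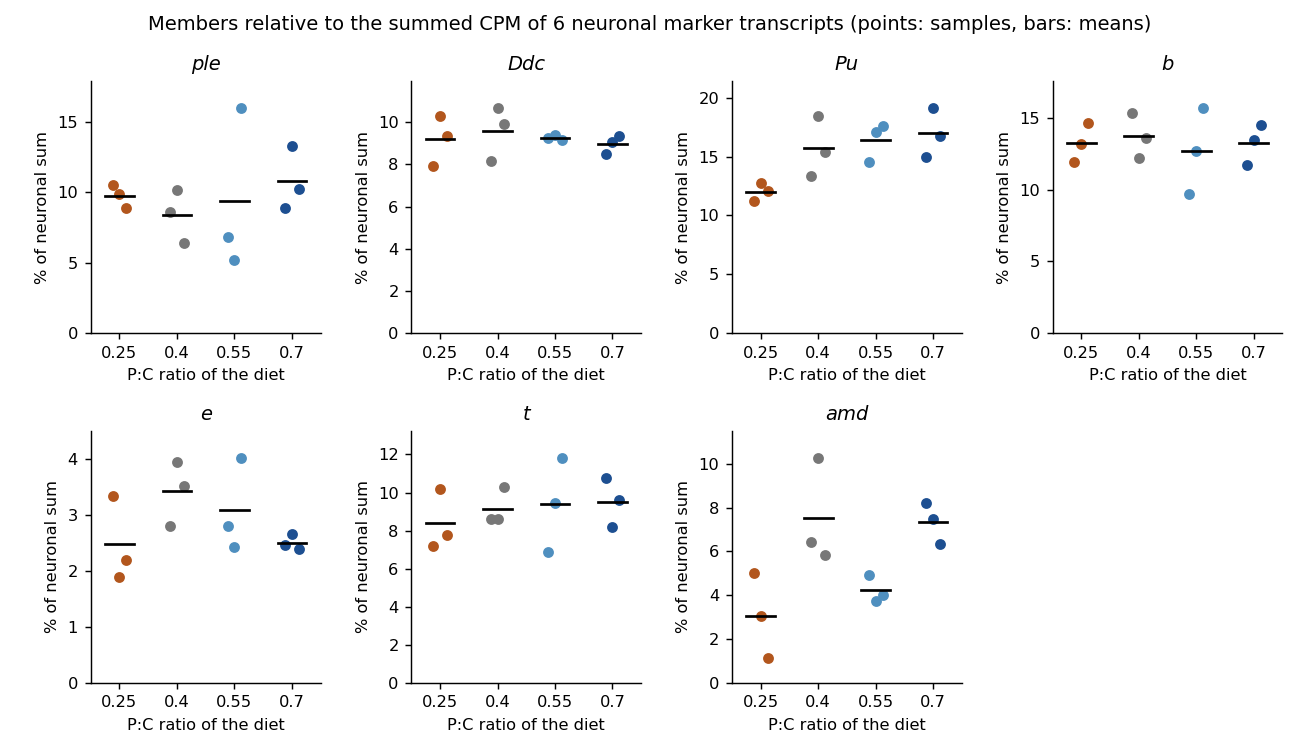
CPM of each of the 7 tested members as a percentage of the summed CPM of 6 neuronal marker transcripts in the same sample (vertical axis, starting at 0) against the P:C ratio of the diet. Points are samples and bars are means. Ddc, b and t stay level, Pu rises from 11.997% to 17.0%, and amd is lowest on the 0.25 diet.

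Genes that work beside the members gave mixed changes, to be read against the 19.6% of all transcripts that fell and the 17.1% that rose on the slope. The list of dopamine synthesis, cofactor supply and transport also held genes of other amines. These were Trh for serotonin, and Tdc1, Tdc2 and Tbh for tyramine and octopamine. Of the 12 genes tested, 2 fell on the slope, a share near that of all transcripts, and 0 rose. The 2 were Vmat, the vesicular monoamine transporter (-1.70, SE 0.38, adjusted p 0.00549), and Dat, the dopamine acetyltransferase (-1.41, SE 0.33, adjusted p 0.00715). Hn, phenylalanine hydroxylase, which supplies tyrosine, had a slope of -0.70 (adjusted p 0.0752). Of 3 genes of the pyrimidine route to beta-alanine, CRMP fell (-0.87, SE 0.24, adjusted p 0.0148). The serotonin transporter SerT fell by 2.11 on the log2 scale from 0.25 to 0.7 (SE 0.41, adjusted p 0.00646), and with Vmat it made up the 2 of 4 aminergic markers whose slope fell. SerT had only 95 counts over the 12 samples, with means of 1.85 CPM at 0.25 and 0.412 CPM at 0.7. It did not pass the low-count filter for 0.55 or 0.7 against the control diet. It was thus tested only with the 0.25 diet, where it was high, so its fall is a description.

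Downstream, the listed laccases and phenoloxidases did not move one way. The transcript laccase2 averaged 25.7, 23.4, 24.3 and 26.7 CPM along the 4 diets, and its slope was not called. Of 6 tested laccases and phenoloxidases, 2 fell, Mco1 (slope -1.26, adjusted p 0.0239) and CG32557 (-1.54, adjusted p 0.0387), and 2 rose, PPO3 (1.82, adjusted p 0.0338) and PPO1 (1.03, adjusted p 0.0493), prophenoloxidases of blood cells. Of 11 tested relatives of y, 4 fell and 0 rose, namely yellow-b (-1.98, SE 0.42, adjusted p 0.00425), yellow-e (-1.58), yellow-c (-0.86) and yellow-d (-1.15). Of 11 tested regulators of ecdysis and cuticle genes, bab2, a transcription factor that represses abdominal pigmentation (-1.80, adjusted p 0.00157), and grh, grainyhead, a transcription factor of epidermal genes (-1.80, adjusted p 0.0267), fell, and the nuclear receptor ftz-f1 rose (0.52, adjusted p 0.0225), counts near the shares of all transcripts.

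In the cuticle itself, 3 of 11 tested genes of chitin synthesis and assembly fell and 1 rose, so that 4 of 11 were called, against 36.7% of all transcripts. The chitin deacetylases serp (-3.02, SE 0.70, adjusted p 0.00702), verm (-2.38, adjusted p 0.0434) and Cda5 (-1.57, adjusted p 0.0435) had falling slopes, and the chitinase Cht2 had a rising slope (0.90, adjusted p 0.0204). Of 118 structural cuticle protein transcripts, 32 were tested and 13 fell along the diets, with 0 rising, led by Cpr47Ea (-9.33, adjusted p 0.000138), Cpr100A (-7.23, adjusted p 0.000163) and Cpr92F (-13.07, adjusted p 0.000270). Between the 2 outer diets 29 were tested, and 16 were called lower at 0.7 and 6 higher, with estimates from -6.77 to 8.83. Of all transcripts, 19.3% were called there and 17.5% were called lower. The list thus did not move one way between those diets. Some cuticle protein transcripts pass the low-count filter only through the diets where they are high, so these counts are a description. Their summed level ranged from 433 to 829 CPM on the 0.25 diet and from 195 to 250.4 CPM on the 0.7 diet.

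**Figure D4:**
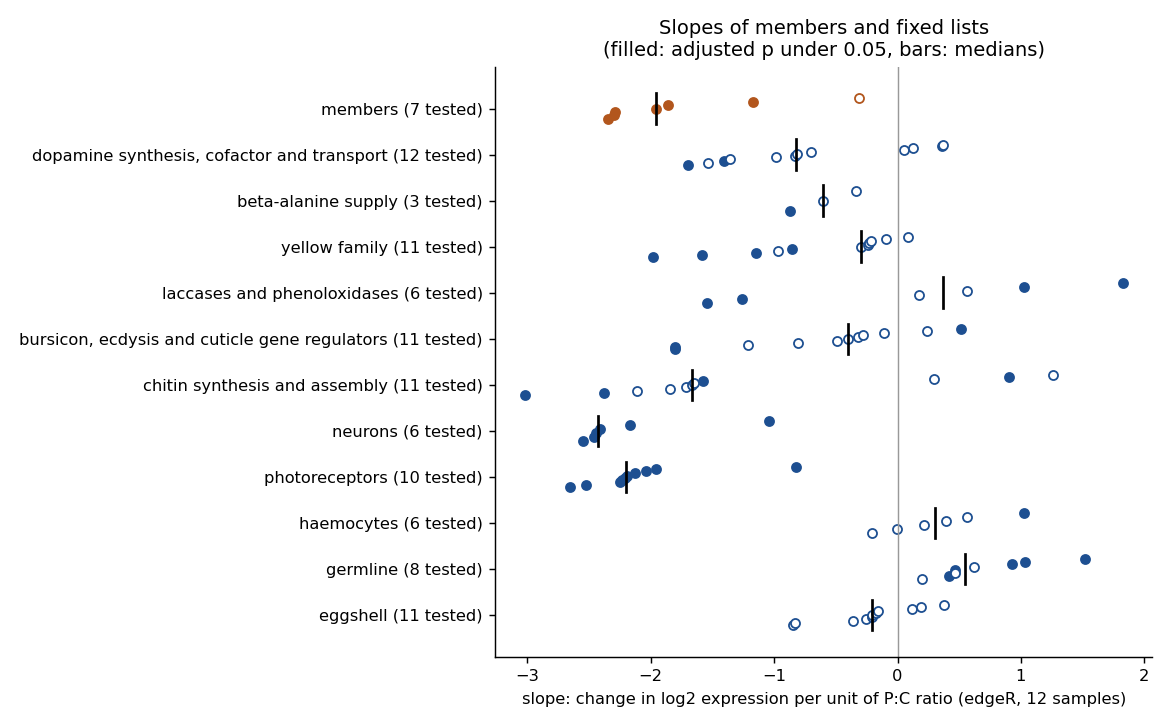
Slope of each tested transcript (horizontal axis, log2 units for 1 unit of the P:C ratio) for the members and 11 gene lists, with the median of each list as a bar. Filled points passed an adjusted p of 0.05. The median of the members is -1.96, beside -2.43 for neurons, -2.20 for photoreceptors, -1.67 for chitin synthesis and assembly and 0.54 for the germline list.

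Over the 12 samples, the transcripts whose log2 CPM was most like the mean profile of the 7 tested members, of 9921 searched, were BM-40-SPARC, a basement membrane glycoprotein (Pearson r 0.980), CG3961 (0.978), stumps (0.978), CG10550 (0.977) and Mipp1 (0.976). All 12 points share the libraries in which the diets also differ. Among the 6 falling members, r between pairs had a median of 0.736 over the 12 samples (0.422 to 0.921). For deviations from the diet means the median was 0.160 (-0.538 to 0.769). The mean profile includes amd, whose r with those 6 had a median of -0.190 over the 12 samples. BM-40-SPARC averaged 183, 159, 146 and 109.8 CPM along the diets. The transcripts most like Ddc were CG14022 (0.988) and CG10186 (0.982), and those most like Pu were the small heat shock protein gene l(2)efl (0.977) and CG18404 (0.965). Those most like b were CG14742 (0.968) and rdgA (0.962), and those most like t were the arrestin gene Arr1 (0.968) and CG12355 (0.956), of which rdgA and Arr1 belong to the photoreceptor list. For e they were CG31323 (0.965) and the protease gene Jon99Ciii (0.942), and for ple CG3746 (0.884) and CR44987 (0.865), the lowest likeness found for any tested member. The profile of amd was shared most by CG10407 (0.977) and the chorion gene Cp7Fb (0.939).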

How the data were processed

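RNA-seq was carried out on 12 samples of whole females. Per the labels and the study's methods, the authors trimmed the reads with Trim Galore, aligned them with HISAT2 to dm6 (BDGP6) and used Seqmonk for counting. The deposited table holds raw counts per transcript, with no normalization or filter. Strand and the use of exons or whole spans in counting are not given in the sources used here, which limits the levels per kilobase.

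Diet and replicate came from the sample titles. Counts were tested in R 4.3.3 with edgeR 4.0.16 (TMM, filterByExpr, quasi-likelihood test), for each pair of diets on its own 6 samples and for the P:C ratio on 12 samples. Adjusted p are Benjamini-Hochberg values over all tested transcripts. The scripts were tested on simulated data. CPM used TMM scaling over the 12 samples, and log2 CPM a prior count of 2. Counting intervals and limits cover counting error only, since copies made by PCR were not marked. Where nothing more is stated of the replicates, p-values measure the spread between pools. Between any 2 samples, 28 to 188 transcripts had equal counts, so no library was a copy of another.

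The members and lists were chosen with earlier results of these data known. All 8 members were named, of each list the 3 tested transcripts with the smallest slope p and any called between 2 diets, and the transcripts most like the members by Pearson r. Of the structural cuticle proteins only the 3 with the smallest slope p were named, and the others called between 2 diets were not. The fourth ones named in the yellow, laccase and chitin lists either met the second condition or, for PPO1, complete a count of 2. The levels of laccase2 were added beside that list. Vm32E of the eggshell list was not matched. Alternatives were DESeq2 1.42.0 with apeglm 1.24.0, other scalings and filters, a replicate block, 1 fit over 12 samples, no fold minimum and each replicate left out, and, added after seeing the data, each diet left out and the neuronal scale. Coordinates are those of the deposited table, and the Ensembl annotation in use gives the same ones for the 8 members.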

Additional observations from a re-analysis of the deposited data

How the results depend on the processing

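Counts of called members by setting follow. For 0.25 against 0.4 (0 members) the count was 1 with DESeq2, library size alone, no low-count filter and the replicate block (ple each time), and 0 to 1 with 1 replicate left out. For 0.7 against 0.4 (2 members) it was 1 with DESeq2, 4 with the replicate block (amd, b, Ddc and e) and 0 to 4 with 1 replicate left out, the 4 without replicate 2 of the control diet. It was 3 with no low-count filter or 1 fit over 12 samples (b added), with at least 10 counts in every sample (amd added) and with no fold minimum (Pu added). For 0.7 against 0.25 (6 members) it was 5 with library size alone, where Pu missed the fold minimum, and 5 to 7 with 1 replicate left out (7 with y, without replicate 1 or 2 of the 0.25 diet). With no low-count filter it was 7 there and for the slope, y being added. For the slope (6 members) it was 4 to 6 with 1 replicate left out: ple and e were lost without replicate 1 of the 0.25 diet (adjusted p 0.0738 and 0.0667), ple without replicate 1 of the 0.7 diet (0.0514) and e without its replicate 2 (0.0632). It was 0 without either outer diet (fewer samples, few transcripts called) and 6 without either middle diet. For 0.55 against 0.4 it was 0 in every setting. The neuronal scale gave 1 member for 0.25 against 0.4 (amd, lower), 0 for 0.7 against 0.4, 1 for 0.7 against 0.25 (amd, higher) and 1 for the slope (Pu, rising).

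These estimates changed sign. For 0.25 against 0.4, e was -0.23 without replicate 1 of the 0.25 diet (-0.23 to 0.33 over the replicates left out). For 0.55 against 0.4, t was 0.016 with the replicate block, 0.18 without replicate 3 of the control diet and 0.09 without replicate 1 of the 0.55 diet (-0.16 to 0.18), Ddc was 0.11 without replicate 3 of either diet (-0.13 to 0.11), and ple was -0.28 without replicate 3 of the 0.55 diet (-0.28 to 0.39). For 0.7 against 0.25, amd was -0.30 without replicate 3 of the 0.25 diet (-0.30 to 0.80), and its slope was 0.32 without replicate 1 of that diet (-1.20 to 0.32) and 0.22 without the control diet. On the neuronal scale the values for 0.25 against 0.4 were -0.057 (Ddc), -0.46 (e), -0.053 (b), -0.13 (t) and -0.39 (Pu), for 0.55 against 0.4 0.023 (t), and for 0.7 against 0.4 0.38 (ple), 0.047 (t) and 0.11 (Pu). For 0.7 against 0.25 they were 0.16 (ple), 0.022 (e), 0.0026 (b), 0.18 (t) and 0.50 (Pu), and for the slope 0.38 (ple), 0.37 (t), 1.88 (amd) and 1.04 (Pu). The cause of these changes was not tested.

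Replicate numbers recur in each diet. Same-numbered samples of different diets did not deviate together (mean r 0.012 over 18 pairs, from -0.34 to 0.34, with 4 over 0.1, and -0.006 over 36 other pairs), so the numbers were not taken as pairs. With the replicate block, all transcripts called were 130 for 0.25 against 0.4 (62 without), 7 for 0.55 against 0.4 (4 without) and 664 for 0.7 against 0.4 (427 without).

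Over all transcripts, DESeq2 called 178 for 0.25 against 0.4 and 28 for 0.55 against 0.4, library size alone called 109 and no filter 94 for the former, no filter called 10 for the latter, and 1 fit over 12 samples called 104 for the former. With no fold minimum, 888 were called for 0.7 against 0.4 and 3800 for 0.7 against 0.25 (1902 with it). Leaving out 1 replicate gave 2 to 394, 0 to 20 and 46 to 862 for the 3 comparisons with the control diet, and 1638 to 4521 for the slope (3642). It gave 1216 for 0.7 against 0.25 without replicate 2 of the 0.7 diet. The neuronal scale called 4600, 15 and 4647 for the comparisons with the control diet, 7522 for 0.7 against 0.25 and 7716 for the slope. Library size alone moved the share of higher calls from 13.1% to 26.5% for 0.7 against 0.4 and from 9.31% to 24.6% for 0.7 against 0.25, and the median slope from 0.05 to 0.19.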

Other observations

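Markers of other tissues were measured in the same libraries. Along the P:C ratio, 17.1% of all transcripts rose and 19.6% fell. Of 8 germline transcripts, 5 rose along the P:C ratio and 0 fell, led by osk, an RNA that patterns the posterior of the egg (slope 1.03, SE 0.21, adjusted p 0.00340), nos (0.93, adjusted p 0.00941) and bam (1.52, adjusted p 0.0100). None of 11 eggshell and none of 3 yolk protein transcripts had a called slope by edgeR (0 at an unadjusted p under 0.05 in either list), but a slope does not register a drop at both ends of the series. Against the control diet, all 11 eggshell transcripts had estimates below 0 at 0.7 (median -0.44, 7 at an unadjusted p under 0.05 and 4 at an adjusted p under 0.05, none past the fold minimum) and at 0.25 (median -0.35, 4 at an unadjusted p under 0.05 and 0 after adjustment). The 3 yolk protein transcripts had a median of -0.27 at 0.7, with 1 at an adjusted p under 0.05, and of -0.10 at 0.25. Of 6 haemocyte transcripts, 1 rose, PPO1. The larval serum protein transcripts, storage proteins made by the larval fat body, went both ways, with Lsp2 rising (slope 3.35, SE 0.91, adjusted p 0.0144) and Lsp1gamma falling (-4.50, SE 0.76, adjusted p 0.00110), and 3 of the 6 in the list were tested. The summed level of that list ranged from 352 to 1015 CPM on the 0.25 diet, 605 to 856 on the control diet, 1413 to 1959 on the 0.55 diet and 921 to 1452 on the 0.7 diet.

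The knickkopf transcript knk, whose protein organises chitin, was called higher at 0.7 than on the control diet (log2 fold change 1.17, SE 0.27, adjusted p 0.0355). Its estimate at 0.25 against the control diet was 0.78 (adjusted p 0.236), and its slope was not called (adjusted p 0.192).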
